A study of Homo sapiens with 12 samples.

Results

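Pre-miR-197, a synthetic precursor that raises the level of the microRNA miR-197, was compared with a negative control transfection, NC, in 3 human lung adenocarcinoma lines. Of the 12 arrays of the series, 6 belong to this comparison. They are the 3 arrays whose titles end in premiR-197 and the 3 whose titles end in NC without naming a locked nucleic acid, paired by cell line. The lines were A549, PC14 and PC14CDDP, and PC14CDDP is a cisplatin-resistant derivative of PC14. Each transfection was made at 25 nM, and mRNA was hybridized to a one-dye array of 60-base probes. The labels call the control AllStar-NC and give neither its sequence nor its structure. The other 6 arrays hold LNA-miR-197, a locked nucleic acid that blocks miR-197, and its control LNA-NC, and they are used here only where they bear on the comparison.

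A microRNA guides the RISC complex to messenger RNAs that carry a match to its seed, the bases near its 5′ end, and the bound transcripts are translated less and often degraded. A precursor can therefore lower transcripts with a seed match directly, and many other transcripts can follow. In lung cancer cells miR-197 has been studied for its targets in cell cycle and survival pathways.

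The mature strands of miR-197 are shown because the seed decides which transcripts can pair with it. They are the RefSeq sequences of GRCh38.p14, 5′ to 3′, and capitals mark bases 2 to 8. The 3p strand lies at chr1:109598940-109598961 and the 5p strand at chr1:109598901-109598923, both on the plus strand.
hsa-miR-197-3p: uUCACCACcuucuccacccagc
hsa-miR-197-5p: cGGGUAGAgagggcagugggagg
Of the 2545 mature microRNAs in the RefSeq table, 1 has the seed of miR-197-3p, and that is miR-197-3p itself. A transcript can pair with this seed where it holds GTGGTGA, and 3 of the genes that fell after pre-miR-197 held these letters within the probe that measured them. Their stretches are printed from the probes, sense strand, 5′ to 3′, with the match in capitals.
IL22RA1: tcatggagattGTGGTGAagatgaaatga
JMJD1C-AS1: tcttctcatttGTGGTGAtactaattaca
NLK: tttgaagtacaGTGGTGAaaacattaaa
On hg19 the JMJD1C-AS1 stretch lies at chr10:65226270-65226298 and the NLK stretch at chr17:26523364-26523391, both on the plus strand. The files place 44 bases of the IL22RA1 probe, which has 60, at chr1:24446235-24446278 on the minus strand, and the stretch was not placed within them. Whether these stretches are coding or untranslated was not analysed here.

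With 0 probes for MIR197 on the arrays, the microRNA itself was not measured, and the transfection was not checked by its level. On the 6 arrays no spot was saturated, and the 75th percentile of the signal lay between 631 and 709 units. Levels below are the log2 of the signal minus the log2 of that percentile on the same array, and they are comparable between arrays for 1 gene but not between genes. The epithelial markers KRT8 and KRT18 were well above background on all 6 arrays, with KRT18 at 7.28 to 8.27. EPCAM and CDH1 were near the bottom of the scale in PC14CDDP, at -7.89 and -7.84 after NC, and were well above background on 4 and 3 of the 6 arrays. Of 14 markers of blood, endothelial and stromal cells, 10 were tested and none (0) passed the test after pre-miR-197. The unadjusted p was under 0.05 for 1 of them, COL1A1. Signal clearly exceeded background on each of the 6 arrays for 6 of these 10 markers, among them CD79A at 1.09 to 2.47. The same held for 6 of the 10 epithelial and lung markers tested. Presence by this measure therefore did not tell the lists of markers apart. With 1 array for each transfection of a line, the cell line is the replicate. Slide column 1 held pre-miR-197 and column 2 held NC in all lines, and column and transfection cannot be told apart. A549 was on slide 1 and the related lines PC14 and PC14CDDP on slide 2.

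At an adjusted p under 0.05, limma called 34 of 24856 genes lower with pre-miR-197 than with NC (0.137%) and 20 higher (0.0805%). At an unadjusted p under 0.05 these counts were 1950 and 2090. The spread in this fit came from all 12 arrays. With the 6 arrays of the comparison fitted alone, limma called 0 genes in either direction (2014 lower and 1969 higher at an unadjusted p under 0.05), and the methods' t-test also gave 0 after adjustment (1302 and 1820). The 34 lower genes had log2 ratios from -1.94 to -0.59 with a median of -1.10, and 20 of them fell by at least 2-fold. The ratio of all genes had a median of 0.02. For 22 of the 34 genes the largest fall was in PC14CDDP, which also showed the largest change for 44.4% of all genes. On 20 of the 34 genes every pre-miR-197 array lay below every NC array. Over all genes the groups did not overlap, in either direction, for 3.68%. Each call rests on all 3 lines. With A549, PC14 or PC14CDDP left out, 0 genes were called in either direction. All 34 genes were still lower, which had to follow, because each was lower in all 3 lines. The genes at an unadjusted p under 0.05 then numbered 4098 without A549, 1707 without PC14 and 2396 without PC14CDDP.

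The deepest fall was in IL22RA1, the ligand-binding chain of the interleukin-22 receptor, which signals through JAK and STAT proteins. Its level on the NC arrays of A549, PC14 and PC14CDDP was -0.43, -1.25 and 0.08, and on the pre-miR-197 arrays it was -2.14, -2.99 and -2.28. All 3 treated arrays lay below all 3 control arrays, and the log2 ratio was -1.94 (limma SE 0.15, adjusted p = 0.00849). SDC4 encodes syndecan-4, a heparan sulfate proteoglycan of the cell surface. Its level was 1.25, 1.72 and 1.97 after NC in the same order of lines and -0.13, 0.73 and 0.66 after pre-miR-197. The arrays did not overlap, and A549 showed the largest fall (log2 ratio -1.22, SE 0.16, limma adjusted p = 0.0424). COL4A5, a type IV collagen chain of basement membranes, fell in every line by -0.67, -1.43 and -1.16 on the log2 scale, although its levels differed so much between lines that the groups overlapped (limma adjusted p = 0.0382).

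Among the other genes that fell, TKFC, listed in the files as DAK, encodes the triokinase that phosphorylates glyceraldehyde from fructose. Its level was 4.51, 4.86 and 4.26 after NC and 3.08, 3.12 and 2.21 after pre-miR-197, a log2 ratio of -1.74 (SE 0.12, limma adjusted p = 0.00645). VDAC1 encodes the main channel of the outer mitochondrial membrane, and its level was 5.72, 5.30 and 5.20 after NC and 4.64, 3.53 and 3.47 after pre-miR-197. Its fall was smaller in A549 (-1.08) than in PC14 (-1.77) or PC14CDDP (-1.73), with a mean of -1.52 (SE 0.17, limma adjusted p = 0.0249). CYB5B, the cytochrome b5 of the same membrane, went from -0.76, -0.31 and -1.21 to -1.81, -1.58 and -2.39, and the arrays did not overlap (log2 ratio -1.17, SE 0.10, limma adjusted p = 0.0135). TTPAL, which resembles the tocopherol transfer protein, was the most even of these across lines. It went from 2.96, 2.32 and 3.02 to 1.47, 0.83 and 1.47, a log2 ratio of -1.51 ± 0.04 (SD, n = 3 lines, limma adjusted p = 0.00645).

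ERLIN2 and SPRING1 act on sterol control in the endoplasmic reticulum and Golgi. ERLIN2 takes part in the degradation of membrane proteins there, and SPRING1, listed as C12orf49, is needed for the activation of SREBP transcription factors. The level of ERLIN2 was -0.19, -0.41 and -0.66 after NC and -1.29, -1.71 and -2.30 after pre-miR-197. The level of SPRING1 was -0.28, -0.66 and 0.27 after NC and -1.46, -1.81 and -0.74 after pre-miR-197. In both genes every treated array lay below every control array, with log2 ratios of -1.35 for ERLIN2 and -1.11 for SPRING1 (limma adjusted p = 0.0216 and 0.0145). Of the 29 genes on a list of cholesterol and fatty acid synthesis, which holds ERLIN2 but not SPRING1, ERLIN2 was the only 1 called, 5 were lower and 1 higher at an unadjusted p under 0.05, and the list median was -0.08. INSIG1, which holds SREBP in the endoplasmic reticulum, had ratios of -0.29, -0.92 and -0.97 (limma adjusted p = 0.16).

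CBFB, the partner subunit of the RUNX factors, went from 1.34, 2.12 and 2.12 to 0.45, 0.71 and 0.83, and the arrays did not overlap (log2 ratio -1.20, SE 0.14, limma adjusted p = 0.0328). STK38L, a kinase of the NDR family, went from -3.89, -3.15 and -3.71 to -4.89, -4.22 and -5.21, again without overlap (log2 ratio -1.19, SE 0.12, limma adjusted p = 0.0216). SKI, a corepressor of SMAD proteins in TGF-β signaling, fell by 0.93, 1.08 and 0.99 on the log2 scale. NLK, a kinase that acts in Wnt signaling, fell by 0.82, 0.91 and 1.12, and BRMS1L, a subunit of the SIN3 corepressor complex, fell by 0.78, 0.81 and 1.15. Their limma adjusted p values were 0.0382 for SKI, 0.0317 for NLK and 0.0374 for BRMS1L. STK40, another kinase family member, passed the test narrowly (log2 ratio -0.93, limma adjusted p = 0.0491).

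JMJD1C-AS1, named as an antisense RNA, went from -0.81, -1.81 and -2.20 after NC to -1.93, -2.99 and -4.01 after pre-miR-197, so that the groups overlapped although each line fell (log2 ratio -1.37, SE 0.17, limma adjusted p = 0.0328). SVIL-AS1 went from 1.08, 1.23 and 2.21 to -0.07, 0.11 and 1.08, and its fall was nearly equal in the 3 lines (log2 ratio -1.14 ± 0.02, SD, n = 3, limma adjusted p = 0.0216). PAXIP1-AS2 fell by 0.85 (limma adjusted p = 0.0476). The remaining named genes were SEPTIN10, a septin of the cytoskeleton, CLNS1A, a subunit of the methylosome, SECISBP2, which is needed to insert selenocysteine, the lysosomal enzymes NEU1 and HGSNAT, the lipid carrier PITPNB, and TMEM245, TMEM150A and NREP. Their log2 ratios lay between -1.08 for SEPTIN10 and -0.59 for PITPNB. The other 7 of the 34 are loci without a gene symbol, and 1 of these was not well above background on any pre-miR-197 array.

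Other probes of the same genes were examined where they passed the filter. Of the 34 lower genes 10 had such probes, and for 8 of them every other probe was also lower in all 3 lines. The other VDAC1 probe fell by 0.93, 1.77 and 1.78, close to the first, whereas the other TTPAL probe gave -0.81, -0.36 and -0.64. For ERLIN2, 1 of the other probes gave -1.22, -0.89 and -1.24, and the other, which was well above background on 2 of the 6 arrays, gave -0.96, 0.00 and 1.10. Among the 20 higher genes 6 had other probes, and for 4 of them these were higher in all 3 lines. RHOA, a small GTPase of the actin cytoskeleton, was called higher on the probe used (0.67, 0.64 and 0.70), while its other probe, well above background on all 6 arrays, was lower in every line with a mean of -0.68. The direction of RHOA depends on the probe. HEATR1, a ribosome biogenesis factor, was higher on the probe used (0.84, 1.06 and 0.78), and its other probe gave -0.06, 0.02 and 0.01.

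The largest rise was in HMOX1, the heme oxygenase that breaks down heme in stressed cells. Its level was 4.72, 5.18 and 3.71 after NC in A549, PC14 and PC14CDDP, and 6.37, 7.05 and 6.34 after pre-miR-197. The arrays did not overlap, and the log2 ratio was 2.05 (SE 0.25, limma adjusted p = 0.0346). CSGALNACT2, which starts chondroitin sulfate chains, went from -1.51, -1.23 and -0.62 to -0.59, 0.09 and 0.97, so that every treated array lay above every control array (log2 ratio 1.28, SE 0.13, limma adjusted p = 0.0216). NEDD4, an E3 ubiquitin ligase, went from -0.71, -2.61 and -2.02 to 0.80, -1.72 and -1.24, with the largest rise in A549 and with overlap between the groups (log2 ratio 1.06, SE 0.15, limma adjusted p = 0.0492). GNPNAT1, an enzyme of the hexosamine pathway, went from 1.31, 1.11 and 0.88 to 2.17, 2.10 and 2.14, and its arrays did not overlap (log2 ratio 1.04, SE 0.13, limma adjusted p = 0.0328).

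SGCB encodes a sarcoglycan of the dystrophin complex. Its level was -0.22, 0.04 and -0.13 after NC and 0.61, 1.05 and 1.05 after pre-miR-197 (log2 ratio 1.01, limma adjusted p = 0.0479). MIGA1, a protein of mitochondrial fusion listed as FAM73A, went from -0.75, 0.32 and 0.23 to 0.29, 1.38 and 1.14 (log2 ratio 1.00, limma adjusted p = 0.0216). HEATR1 went from 2.76, 2.62 and 3.98 to 3.60, 3.68 and 4.76, and VPS4B, an ATPase of the ESCRT machinery, from 1.16, 1.71 and 2.31 to 2.01, 2.62 and 3.04 (limma adjusted p = 0.0399 and 0.0492). Of these 4 genes, SGCB alone had arrays that did not overlap. The other named genes with a rise were RHOA, CHCHD3 of the mitochondrial inner membrane, ERC1, ZFR, DUS3L, RAB3IL1, C19orf12, AP1AR and KAZN, with log2 ratios from 0.65 to 1.55. KAZN was well above background on 2 of 3 pre-miR-197 arrays and 1 of 3 NC arrays.

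The lower and the higher genes differed in how they stood against the other control. LNA-NC is also a transfection without miR-197, so pre-miR-197 was set against it in the same fit. This comparison shares the 3 pre-miR-197 arrays with the one against NC, and the values are given side by side. All 34 lower genes were lower than LNA-NC in all 3 lines, 29 of them at an adjusted p under 0.05, with a median log2 ratio of -0.90 against LNA-NC and -1.10 against NC. Over all genes 1.63% were called lower against LNA-NC, and 18.0% were lower than LNA-NC in all 3 lines. Of the 20 higher genes 2 were called higher against LNA-NC, 16 were higher in all 3 lines, and the median log2 ratio was 0.27 against LNA-NC and 0.81 against NC. Over all genes 1.34% were called higher against LNA-NC, and 28.6% were higher than LNA-NC in all 3 lines. For 18 of the 20 higher genes NC was the lowest of the 4 transfections in every line (4.26% of all genes). The exceptions were KAZN and ERC1. Pre-miR-197 was the highest of the 4 in every line for 10 of the 20 (8.28% of all genes). For 28 of the 34 lower genes pre-miR-197 was the lowest of the 4 in every line (4.92% of all genes). NC was the highest of the 4 in every line for 19 of the 34 (4.97% of all genes). The NC and pre-miR-197 arrays had chosen these genes, so that these orders are a description.

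Among the single genes, IL22RA1 was at -1.71 against LNA-NC, TKFC at -1.40, VDAC1 at -1.38, TTPAL at -1.28 and SPRING1 at -1.20 on the log2 scale, each with a limma adjusted p of 0.014 or less. STK38L was further from LNA-NC (-1.56) than from NC (-1.19). TMEM150A was the named lower gene closest to LNA-NC, at -0.21 against it and -0.83 against NC (limma adjusted p = 0.28 against LNA-NC), and HGSNAT and PAXIP1-AS2 also missed the threshold against LNA-NC (0.058 and 0.064). HMOX1 had a level of 5.79, 6.32 and 4.82 on the LNA-NC arrays, between NC and pre-miR-197 in every line, and its log2 ratio to LNA-NC was 0.94 (limma adjusted p = 0.085). GNPNAT1 was at 0.07, VPS4B at 0.09 and NEDD4 at 0.10 against LNA-NC, with limma adjusted p values of 0.76, 0.69 and 0.74. KAZN was at 1.47 (limma adjusted p = 0.013), but in PC14CDDP its levels of -7.85 after NC and -8.26 after LNA-NC were near the bottom of the scale, and with normexp background correction its ratio to NC was 0.29 (limma adjusted p = 0.11). The higher genes called against LNA-NC were KAZN and 1 locus without a gene symbol.

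**Figure D1:**
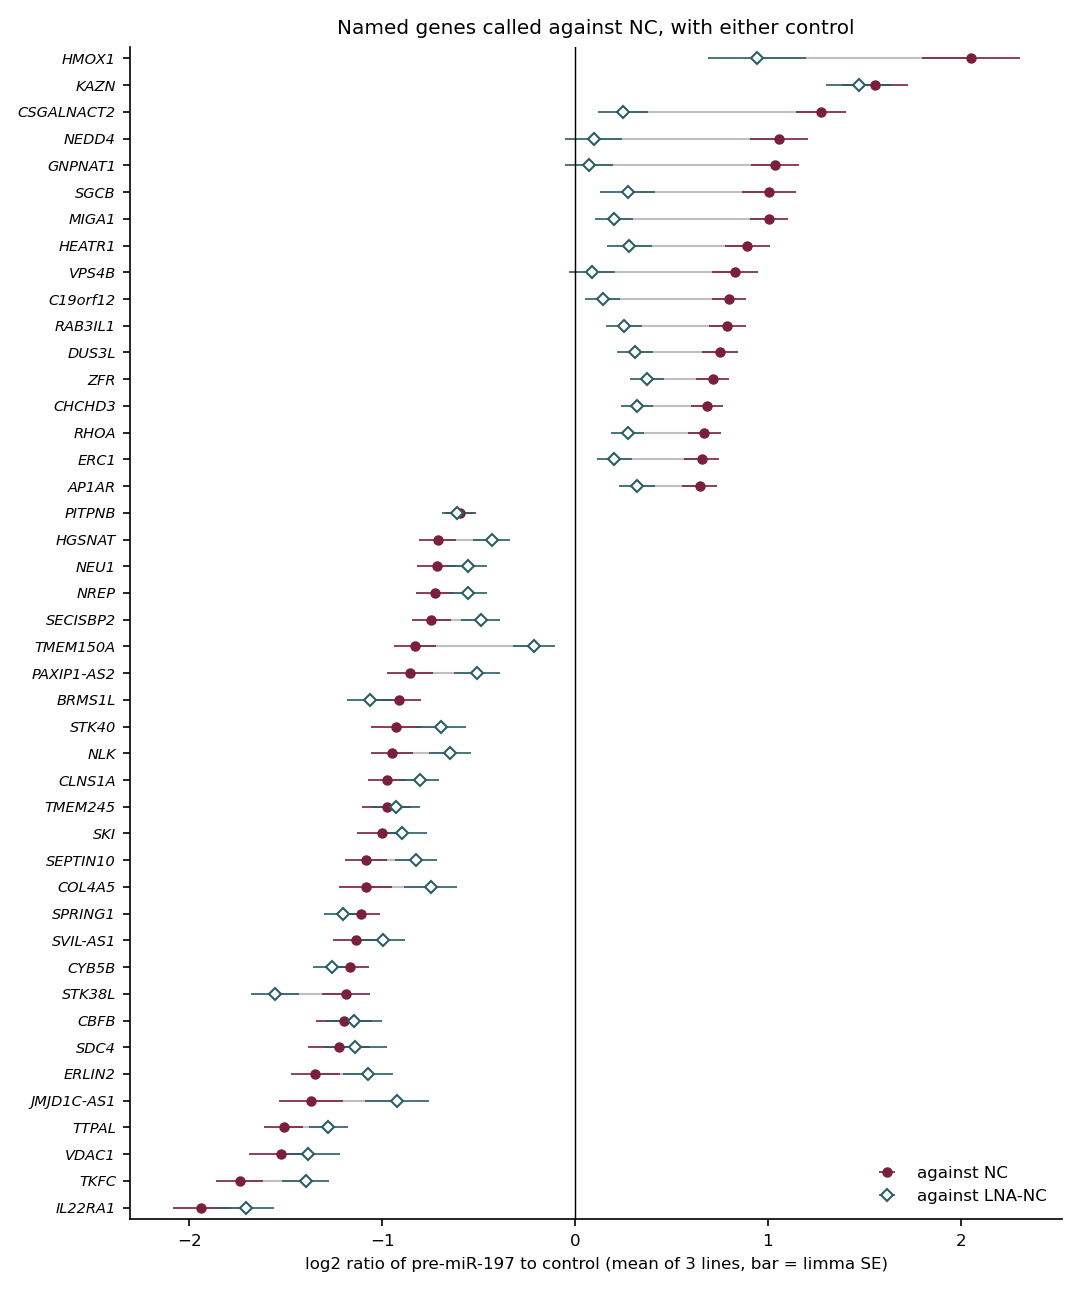
Mean log2 ratio of pre-miR-197 to NC (filled circles) and to LNA-NC (open diamonds) over the 3 lines for the 44 called genes that have a symbol, with bars for the limma SE. Most lower genes keep their distance from 0 with either control, while 15 of the 17 higher genes lie at 0.37 or less against LNA-NC, with HMOX1 at 0.94 and KAZN at 1.47.

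The inhibitor was then examined on the same genes, since LNA-miR-197 against LNA-NC shares no array with pre-miR-197 against NC. Over all genes the inhibitor called 3.86% lower and 3.9% higher. Of the 34 genes that fell after pre-miR-197, 2 rose after LNA-miR-197, 6 fell and 26 did not pass the test. SKI rose after the inhibitor by 0.49, 0.65 and 0.97 (limma adjusted p = 0.025) and SVIL-AS1 by 0.37, 0.61 and 0.62 (limma adjusted p = 0.036). The 5 named genes that fell after both were STK38L, CYB5B, COL4A5, NLK and NREP, and the sixth was a locus without a gene symbol. CYB5B fell by 0.92, 0.72 and 0.97 after the inhibitor, and NREP by 0.77, 0.72 and 0.85. In all 3 lines 20 of the 34 were lower after the inhibitor and 7 were higher, against 24.4% and 23.4% of all genes. Of the 20 genes that rose after pre-miR-197, 2 fell after LNA-miR-197, 3 rose and 15 did not pass the test, and in all 3 lines 9 were higher and 5 lower. IL22RA1 had inhibitor ratios of -0.07, -0.46 and -0.46, and TKFC of -0.07, -0.09 and -0.23.

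The difference between the effects of pre-miR-197 and LNA-miR-197 was tested in the same fit, and 29 genes passed (0.117%). Among them were 7 of the 34 lower genes, of which TTPAL (-1.74, SE 0.14, limma adjusted p = 0.022), SKI (-1.71, SE 0.18, adjusted p = 0.034), SVIL-AS1 (-1.67, SE 0.17, adjusted p = 0.034), IL22RA1, TKFC (both -1.61) and SPRING1 (-1.07) have a symbol. Of the 20 higher genes 2 passed. ERC1, a scaffold of membrane trafficking, rose after pre-miR-197 (0.66) and fell after LNA-miR-197 (-0.61). Its difference of 1.27 passed the test (SE 0.13, limma adjusted p = 0.034). The lower and higher genes had been chosen on the pre-miR-197 and NC arrays, which also enter this difference, so these counts are a description. After the inhibitor, IL22RA1, TKFC, SPRING1 and TTPAL had mean log2 ratios of -0.33, -0.13, -0.04 and 0.23, and none of them passed the test.

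The seed match was sought in the probes themselves, because full transcripts were not analysed here. A probe covers 60 bases of its transcript, so that most matches in a transcript lie outside it. Of the 33712 probes that passed the filter, 176 (0.522%) held GTGGTGA on the sense strand, and 62 (0.184%) held it followed by A, the longer match GTGGTGAA, which is part of the 176. In A549, PC14 and PC14CDDP the median log2 ratios of the 176 were -0.03, -0.09 and -0.07, and those of the 62 were -0.09, -0.16 and -0.09. The medians of all probes were 0.02, 0.02 and 0.02. Probes lower in all 3 lines made up 33.5% of the 176 and 38.7% of the 62, against 19.6% of all probes. The opposite strand of the match, TCACCAC, was held by 145 probes (0.430%), which had medians of 0.09, 0.05 and 0.04 and were lower in all 3 lines for 13.8%. Of these 145 probes 33.1% were higher in all 3 lines, against 24.4% of all probes and 15.9% of the 176. For the 5p strand the match TCTACCC was held by 95 probes (0.282%), with medians of 0.03, 0.01 and 0.01 and 17.9% lower in all 3 lines. After LNA-miR-197 the medians of the 176 probes were 0.03, 0.02 and 0.00, and 26.7% were higher in all 3 lines, against 23.6% of all probes.

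Of the 34 lower genes 3 held the 3p match in a probe (8.82%), against 0 of the 20 higher genes and 0.704% of all genes tested. The opposite strand of the match was held by probes of 144 genes, of which 0 were called lower and 1 higher, and the 5p match by probes of 95 genes, of which 1 was called lower and 0 higher. The 3p match was held by probes of 175 genes. The 3 lower genes with the match are those whose stretches are printed above, and in IL22RA1 and NLK the match was followed by A. IL22RA1 fell by 1.94, JMJD1C-AS1 by 1.37 and NLK by 0.95 on the log2 scale. A match is a description of the letters and does not show that the microRNA binds there.

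Gene lists were described by their counts and medians beside those of all genes, of which 19.5% were lower and 24.7% higher in all 3 lines. Interferon-stimulated genes, which restrain viruses and respond to foreign RNA, were on the low side. Of 26 tested, 13 were lower in all 3 lines and 2 higher, the median log2 ratio was -0.37, and 8 were lower and 1 higher at an unadjusted p under 0.05, against 7.85% and 8.41% of all genes. None (0) passed the adjusted threshold. IFIT1, which binds foreign RNA, had a mean log2 ratio of -1.34 and was lower in each line (limma adjusted p = 0.205), and the RNA sensors IFIH1 and RIGI had means of -1.10 and -0.69 (limma adjusted p = 0.167 and 0.153). Against LNA-NC the list median was -0.34.

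Small nucleolar RNAs, which guide the modification of ribosomal RNA, were on the high side. Of 276 tested, 131 were higher in all 3 lines and 17 lower, the median was 0.16, and 54 were higher and 6 lower at an unadjusted p under 0.05. None (0) passed the adjusted threshold. SNORA2A had ratios of 0.52, 1.66 and 2.08 and SNORA13 of 0.86, 1.48 and 1.60 (limma adjusted p = 0.0785 and 0.0834). Against LNA-NC the median was 0.31 and 20 of them were called higher, and after LNA-miR-197 the median was 0.45. Probes were well above background on all 6 arrays for 235 of the 276.

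Genes of RISC and microRNA processing split by member. Of 13 tested, 7 were higher in all 3 lines and 3 lower. DICER1, which cuts microRNA precursors, had ratios of -0.36, -0.78 and -1.26 (limma adjusted p = 0.0916), whereas DGCR8, the partner of DROSHA, had 0.31, 0.60 and 0.99 (limma adjusted p = 0.114), and AGO3 and AGO2 had means of 0.44 and 0.37. Against LNA-NC the means of DICER1 and DGCR8 were -0.23 and 0.20. Receptors of the IL-6 and IL-10 families and JAK-STAT genes held 1 called gene, IL22RA1, and 6 of 30 were lower at an unadjusted p under 0.05, among them IL6R (-1.07, well above background on 3 of the 6 arrays), STAT5B (-0.40) and PIAS3 (-0.32), while the list median was 0.00. On the list of heme and iron genes HMOX1 was the 1 gene called among 23, and the list median was -0.04. Of 22 NRF2 and antioxidant targets 9 were higher in all 3 lines and 2 lower, with a median of 0.12, and GCLM, a subunit of the enzyme that makes the glutathione precursor, had ratios of 0.35, 0.30 and 0.40 (limma adjusted p = 0.176).

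Of 30 mitosis and cytokinesis genes 11 were higher in all 3 lines and 1 lower, and CDC20, an activator of the anaphase-promoting complex, had ratios of 0.43, 0.30 and 0.25 (limma adjusted p = 0.263). DNA replication and S phase genes had 12 of 30 higher and 7 lower in all 3 lines, with FEN1 at -0.47 and MCM2 at 0.26. Among CKS1B and its SCF-SKP2 partners 6 of 16 were lower in all 3 lines, and the lowest p was that of CDKN1C, a CDK inhibitor, at -0.76, -0.96 and -1.14 (limma adjusted p = 0.203). Of 24 p53 targets 5 were lower and 2 higher in all 3 lines, and TP53INP1 had even ratios of -0.97, -0.95 and -0.96 (limma adjusted p = 0.11). Members of the ATF4 and unfolded protein response, adherens junction and EMT, glycolysis and BCL2 lists were called in 1 case, TKFC. The medians of these lists were 0.01, -0.23, -0.12 and 0.02 in that order. At an unadjusted p under 0.05, 3, 3, 2 and 2 of their genes were lower, and 1 of each was higher. On the first list HSPA5, the chaperone of the endoplasmic reticulum, was at -0.54 and ATF4 at 0.45. CTNNA1, an α-catenin, was at -0.39, PFKP, a phosphofructokinase, at 0.32 and BCL2L2, a survival factor, at -0.26. All of these genes had a limma adjusted p above the threshold.

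Of 9 genes on a list of reported miR-197 targets, 0 were called, and 3 were lower and 1 higher at an unadjusted p under 0.05. CTNND1 was among the lower genes of this list and is counted again on the list that follows. TUSC2, a tumor suppressor, had ratios of -0.47, -0.44 and -0.77 against NC (limma adjusted p = 0.0776) and a mean of -0.16 against LNA-NC. BMF, a proapoptotic BCL2 family member, had -1.42, -0.53 and -0.91 (limma adjusted p = 0.191) with a mean of -0.96 against LNA-NC, and it was well above background on 4 of the 6 arrays. Of the 9 genes that the study names for these pathways, ERLIN2 was called. The study chose some of them on these arrays, so their direction is not independent evidence. Against LNA-NC, CTNND1, the p120 catenin, was at -0.93 and MYC at 0.64 (limma adjusted p = 0.029 and 0.043). These values were close to their ratios against NC of -0.91 and 0.66 (adjusted p = 0.0641 and 0.0823). After LNA-miR-197 CTNND1 was also lower, at -0.89 (limma adjusted p = 0.022), and MYC was at 0.10 (adjusted p = 0.66). The difference between the effects of pre-miR-197 and LNA-miR-197 on CTNND1 was -0.02 (limma adjusted p = 0.97). CKS1B, a subunit that SCF-SKP2 needs, had a level of 6.48, 6.02 and 7.02 after NC and 6.28, 5.80 and 6.62 after pre-miR-197, with a mean ratio of -0.28 against NC and -0.21 against LNA-NC (limma adjusted p = 0.218 and 0.23).

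By the study's criterion of a change of at least 1.2-fold in every line, counted without a test, 1228 genes were lower (4.94%) and 961 were higher (3.87%). The study applied this criterion to predicted target genes and to both reagents, whereas here it was applied to all genes tested and to pre-miR-197 alone. With LNA-NC in place of NC these counts were 1624 and 1617. With normexp background correction they were 642 and 432.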

How the data were processed

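The authors labeled 100 ng of total RNA per transfection, hybridized 1-dye Agilent arrays and extracted spots with Agilent Feature Extraction 10.7.3.1 (per the labels). They deposited intensity values per spot (mean signal, local background and a background-subtracted processed signal), flags for spots above background, and a value table, which equals the processed intensity on every spot. No normalization between arrays is given in the main text of the paper. Control and outlier spots were left out, repeated spots were averaged, and log2 processed intensities were scaled by subtracting the log2 of each array's 75th percentile. The filter kept probes flagged well above background on 3 or more of the 12 arrays (33712 of 50599), and the brightest stood for its gene. Names came from RefSeq accessions (GRCh38.p14, 55.7% of probes), otherwise from the files, and coordinates of probes from the files (hg19).

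limma 3.58.1 (R 4.3.3) was fitted to the 12 arrays with terms for transfection and cell line, moderated by eBayes, and p-values were adjusted by Benjamini-Hochberg over 24856 genes. The line pairs treated and control arrays: their deviations from the group means correlated across genes with r of 0.948, 0.905 and 0.879. The p-values measure the scatter left after the terms for line and transfection, pooled over all 4 transfections, and 2 of the 3 lines are related. The seed match was searched as exact letters in the 60-base probe sequences, sense strand, with the reverse complement of bases 2 to 8. Members, lists and named genes were chosen with earlier results of these data known. Any called gene may be named; the 12 lowest and 8 highest named genes well above background on all 6 arrays get values per array, and each list up to 4 members with the smallest unadjusted p. Loci without a symbol are counted, and 2 list members are not reported singly here. Alternatives are given in the closing section. Python 3.11.15, numpy, pandas and matplotlib read the files and drew the plots. Supplementary methods were not read, and 3′ UTR sequences and target predictions were not analysed here.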

Additional observations from a re-analysis of the deposited data

Results flagged for a closer look

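Among the called genes, the genes that the study names and the list members with the smallest p, there were 3 in which the lines moved in opposite directions by at least 1.2-fold each, and the difference was not tested, since each line has 1 array per transfection. In the order A549, PC14 and PC14CDDP, the log2 ratios of STAT3 were -0.42, 0.14 and 0.39, a spread of 0.813. BCL2 had -0.37, 0.03 and 0.41, a spread of 0.779. VWF, an endothelial gene that was examined as a marker of another cell type, had 0.87, -0.30 and 0.30, a spread of 1.17. Among the remaining markers of lung and other cell types, CD3E (0.20, 2.33 and -4.35), ACTA2 (-0.69, 1.27 and -0.76) and SFTPD (0.29, 0.39 and -1.32) also moved in opposite directions, and they were well above background on 4, 2 and 3 of the 6 arrays.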

How the results depend on the processing

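The numbers of called genes depended on the setting. Directions mostly did not turn, but under some settings they could not. These were the paired t-test, no replicate block, the slide as a block and the 6 arrays alone. The trend and robust prior and the deposited value table likewise kept the ratios of the main fit. With a line left out, the called genes could not turn either, since each moved the same way in all 3 lines. Against 34 lower and 20 higher genes, the counts were 406 and 333 with LNA-NC in place of NC, 369 and 206 with normexp background correction, 301 and 229 with a trend and robust prior, 235 and 148 with probes well above background on all 6 arrays, and 4 and 0 with no filter on dim probes. Quantile normalization gave 54 lower genes and the mean of a gene's probes gave 10 higher genes. The counts were 0 and 0 with the paired t-test (1302 lower and 1820 higher at an unadjusted p under 0.05). They were also 0 and 0 with no replicate block (154 and 131), with the slide as a block in place of the cell line (653 and 620) and with the 6 arrays fitted alone (2014 and 1969). Leaving out each line in turn gave from 0 to 0 in both directions, and its counts at 1.2-fold in every remaining line ranged from 1983 to 2609 lower and from 1696 to 2651 higher. At 1.2-fold, normexp gave 642 lower and 432 higher, and LNA-NC in place of NC gave 1617 higher. Of the 34 lower genes 29 and of the 20 higher genes 2 were called with LNA-NC, and 34 and 20 with quantile normalization. With no replicate block no call was kept, and the line is the replicate here.

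Among the called genes the sign turned once, for RHOA with the mean of its probes (-0.0027). Among the other genes reported here, it turned with LNA-NC for CCND1 (0.15), BCL2L2 (0.040) and BCL2A1 (-0.10), with the mean of probes for STAT3 (-0.10), BCL2 (-0.12) and BCL2A1 (-0.34), and with 1 line left out for STAT3 (from -0.14 without PC14CDDP to 0.27 without A549), BCL2 (from -0.17 without PC14CDDP to 0.22 without A549) and VWF (from -0.0019 without A549 to 0.58 without PC14). Small nucleolar RNAs called higher, 0 in the report, numbered 16 with normexp, 13 with a trend and robust prior, 9 with probes well above background on all 6 arrays and 20 with LNA-NC, and the median of interferon-stimulated genes ranged to -0.23 with normexp. Over the 15 alternatives the adjusted p of IL22RA1 ranged from 0.00060 to 1.00. The causes of these changes were not tested. Dim probes near background limit what low signals can show, and the precision rests on 3 lines with 1 array per transfection.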
